A study of Mus musculus with 2 samples.

Results

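The genes described here are the 112 small nucleolar RNA (snoRNA) and small Cajal-body RNA (scaRNA) genes that were counted in mouse blood neutrophils. They were chosen by an expected count of at least 10 in both libraries, from 1558 annotated genes of these transcript types among 55536 genes in all. The counts therefore picked the members, and levels, class sizes and ranks below are descriptions with no test. The series holds 2 total RNA libraries of 1 group: neutrophils, as primary cells, from the peripheral blood of adult C57BL/6J mice aged 5 to 6 weeks, with sex not recorded. No treatment, mutation or second cell type is labelled, so no comparison between conditions exists. The labels number the libraries as biological replicates 1 and 2 but give both the same donor identifier, so the spread between them may be technical. The RNA input was 100 ng each, the labels give sizes of 200 to 1000 with no unit, and 17 of the 112 members are 200 nt or longer.

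SnoRNAs are stable RNAs of the nucleolus that mostly guide chemical modification of ribosomal RNA by base pairing. Box C/D RNAs (Snord symbols) direct ribose methylation by fibrillarin, and box H/ACA RNAs (Snora symbols) direct pseudouridylation by dyskerin. ScaRNAs carry the same boxes but act in Cajal bodies, mostly on spliceosomal small nuclear RNAs. A few snoRNAs, among them U3, U8 and U17, take part in cleavage of the ribosomal RNA precursor. In mammals most are cut out of introns of longer host genes. A mature neutrophil divides no more and makes few new ribosomes compared with its marrow precursors.

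The sequences of the members that carry the results are shown first, with capitals on the box letters that name their class. They are GENCODE M21 transcripts on GRCm38, written 5′ to 3′ on the RNA strand with T for U, and this strand alone was searched. In box C/D RNAs the capitals mark the first TGATGA (C box) and the last CTGA (D box). Scarna10 (chr6:125186359-125186683, minus strand, 325 nt) had the most counts of all members (its bases 7 to 306 are shown, which hold the C box but not the D box), and Snord17 (chr2:144265979-144266216, minus strand, 238 nt) the most among Snord genes. Snord21 (chr5:107904555-107904648, plus strand, 94 nt) differed most between the libraries. Snord118, the U8 RNA (chr11:69073427-69073561, plus strand, 135 nt), is the lowest Snord member. Gm23734 (chr1:127375131-127375239, plus strand, 109 nt) has only a placeholder symbol but holds both C/D boxes. Snord57 (chr2:130278016-130278087, plus strand, 72 nt) is no member, and stands here for short RNAs that only 1 kind of deposited table counted.
Scarna10: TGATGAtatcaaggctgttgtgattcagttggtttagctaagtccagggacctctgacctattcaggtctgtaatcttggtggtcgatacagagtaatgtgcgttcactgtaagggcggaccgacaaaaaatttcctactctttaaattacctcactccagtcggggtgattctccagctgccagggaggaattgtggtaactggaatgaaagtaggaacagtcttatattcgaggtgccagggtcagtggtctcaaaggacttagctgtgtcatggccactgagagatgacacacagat
Snord17: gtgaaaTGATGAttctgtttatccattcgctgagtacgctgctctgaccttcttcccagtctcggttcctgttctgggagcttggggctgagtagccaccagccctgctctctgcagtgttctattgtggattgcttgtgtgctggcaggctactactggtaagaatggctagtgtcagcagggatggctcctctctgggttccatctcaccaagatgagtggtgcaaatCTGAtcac
Snord21: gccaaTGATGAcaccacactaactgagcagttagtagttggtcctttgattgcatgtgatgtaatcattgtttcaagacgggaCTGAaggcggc
Snord118: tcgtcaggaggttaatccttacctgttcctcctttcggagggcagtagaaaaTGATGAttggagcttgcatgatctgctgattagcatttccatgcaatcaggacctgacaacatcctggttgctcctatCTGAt
Gm23734: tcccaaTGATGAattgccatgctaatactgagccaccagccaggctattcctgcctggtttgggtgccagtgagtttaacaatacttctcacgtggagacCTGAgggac
Snord57: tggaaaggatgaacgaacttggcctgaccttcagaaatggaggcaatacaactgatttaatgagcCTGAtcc

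U3, the snoRNA of the first cleavages of the precursor, has several near-identical gene copies. Rnu3a (chr10:40258467-40258680, plus strand, 214 nt) and Rnu3b1 (chr11:87443237-87443452, plus strand, 216 nt) are shown with the same boxes in capitals. The Rnu3b1, Rnu3b2, Rnu3b3 and Rnu3b4 members share 1 sequence of 216 nt.
Rnu3a: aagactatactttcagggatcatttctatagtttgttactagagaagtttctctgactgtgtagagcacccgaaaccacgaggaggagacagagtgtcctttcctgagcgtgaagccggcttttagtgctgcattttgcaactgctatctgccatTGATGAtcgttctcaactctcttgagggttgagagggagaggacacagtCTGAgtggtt
Rnu3b1: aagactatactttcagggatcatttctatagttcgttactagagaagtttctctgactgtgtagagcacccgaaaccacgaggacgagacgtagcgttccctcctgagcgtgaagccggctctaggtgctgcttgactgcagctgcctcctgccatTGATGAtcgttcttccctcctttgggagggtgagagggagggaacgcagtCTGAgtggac

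In box H/ACA RNAs the capitals mark the match to ANANNA (H box) nearest the middle and an ACA within the last 8 bases. Snora81 (chr16:23110756-23110933, plus strand, 178 nt) is the highest of this class with a sequence shown here, and is 1 of 2 Snora members with no ACA in that window. Snora73b (chr4:132352322-132352526, minus strand) and Snora73a (chr4:132352775-132352979, minus strand) are the U17 pair, which differ at 7 of 205 positions (96.6% identity). Gm22422 (chr16:56035753-56035887, minus strand, 135 nt) had the highest mean TPM of all members.
Snora81: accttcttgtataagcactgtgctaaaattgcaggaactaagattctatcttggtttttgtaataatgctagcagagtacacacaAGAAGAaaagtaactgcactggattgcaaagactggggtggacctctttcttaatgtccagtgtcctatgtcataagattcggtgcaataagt
Snora73b: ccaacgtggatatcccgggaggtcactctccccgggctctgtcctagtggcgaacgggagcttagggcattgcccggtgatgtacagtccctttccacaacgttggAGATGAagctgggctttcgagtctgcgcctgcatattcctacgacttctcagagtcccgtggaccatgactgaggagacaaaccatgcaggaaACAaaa
Snora73a: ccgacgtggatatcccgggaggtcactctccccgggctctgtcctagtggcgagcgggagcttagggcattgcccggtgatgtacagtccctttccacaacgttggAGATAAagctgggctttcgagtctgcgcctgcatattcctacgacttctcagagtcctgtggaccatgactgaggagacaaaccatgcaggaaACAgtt
Gm22422: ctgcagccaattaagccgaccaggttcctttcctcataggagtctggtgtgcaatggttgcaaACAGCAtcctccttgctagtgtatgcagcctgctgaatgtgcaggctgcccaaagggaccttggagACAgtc

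The C box and an ACA near the end followed class among Snora and Snord members. In both classes, asking for the second box of each pair as well left these numbers unchanged. Both C and D boxes were found in 9 of 10 Snord members (90%), against 74 of all 98 annotated Snord genes (75.5%) and 0 of 32 Snora members. An ACA near the end stood in 30 of 32 Snora members (93.8%), against 40 of all 42 annotated Snora genes (95.2%) and 1 of 10 Snord members. Of the 63 members with other symbols, 46 (73.0%) held an H box and an ACA, against 649 of 1409 annotated genes with other symbols (46.1%), and 13 (20.6%) held both C and D boxes, against 320 (22.7%). Over all 1558 genes, TGATGA occurred in 26.5%, CTGA in 79.3%, ANANNA in 91.8% and the terminal ACA in 47.6%. CTGA was held by 18 of 32 Snora members and ANANNA by all 10 Snord members, so neither of these alone marks a class. These matches are letters in a sequence and show no function.

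By symbol the members were 32 of 42 Snora genes, 10 of 98 Snord genes, 7 of 9 Scarna genes and 63 of 1409 genes with other symbols, of which 56 have a Gm placeholder. Across all genes, 25.6% had 10 counts in both libraries, which is no measure of the members since the rule is the same. A total of 16 members have the transcript type scaRNA, and Scarna10 is typed as a snoRNA. In replicate 2, 147 genes reached the minimum, and in replicate 1, 119. Just inside the rule were Gm22362 with 15.0 counts in replicate 2 and 10 in replicate 1, Gm25777 with 33.0 and 10, and Snora36b with 12.0 and 30. Just outside it were Gm22247 with 9.01 and 19.0, Gm25053 with 9 and 10, and Snord14c with 26.9 and 8.83, in the same order of libraries.

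Together the members held 0.755% of all expected counts in replicate 2 and 0.539% in replicate 1 (0.647% ± 0.153, SD, n = 2). Per length their share was larger, at 6.88% of all TPM in replicate 2 and 5.15% in replicate 1 (6.02% ± 1.23, SD, n = 2). That share depends on other small RNAs: without snRNA, misc_RNA and rRNA genes in the TPM total it averaged 35.8%. Both TPM shares also rest on division by an effective length, described below. Its median over members was 11.5 nt in replicate 2 and 9.45 nt in replicate 1, so the TPM shares stand far above the share of counts. Over all genes, replicate 2 held 21471673 counts and replicate 1 held 22646991, so 10 counts equal 0.466 and 0.442 CPM, counts scaled to the library total. Such a level is a bulk value, in which fewer cells of a type and less RNA per cell cannot be told apart. The counts were concentrated: the 10 highest members held 63.0% of the members' counts in replicate 2 and 63.6% in replicate 1, and 44 members averaged under 100 counts. The highest member by mean count stood 1820-fold above the lowest.

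By counts, the highest member was a Cajal-body RNA. Scarna10, whose human counterpart carries both box pairs and guides modification of the U5 spliceosomal RNA, had 23651 expected counts in replicate 2 and 21841 in replicate 1. That is 1101 and 964 CPM, and it made up 14.6% and 17.9% of all member counts. By mean TPM it ranked 12 among the members. Scarna2, a guide for the U2 spliceosomal RNA in human cells, had 5780 counts in replicate 2 and 4955 in replicate 1. Scarna13 had 1325 counts in replicate 2 and 1683 in replicate 1, and Scarna6 had 574 and 694. The CPM ratio of replicate 2 over replicate 1 was 1.14 for Scarna10, 1.23 for Scarna2, 0.87 for Scarna6 and 0.83 for Scarna13. The 3 others stayed near the minimum: Scarna3a had 40.0 counts in replicate 2 and 43.0 in replicate 1, Scarna3b had 34.0 and 15.0, and Scarna8 had 15.0 and 24. The Scarna genes left out are the shortest of the 9: Scarna17 (79 nt) had 3 counts in replicate 2 and 5.00 in replicate 1, and Scarna9 (70 nt) had 0 in both.

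Among members with Snora symbols, Snora74a had 10727 counts in replicate 2 and 14716 in replicate 1, and Snora81 had 12383 and 9024. Snora23 followed with 995 counts in replicate 2 and 1228 in replicate 1. Snora7a had 739 and 609 counts, and Snora73b, the U17 RNA of small-subunit rRNA processing, had 730 and 583. Its pair Snora73a had 477 counts in replicate 2 and 403 in replicate 1, so Snora73b had the higher count of the pair in both libraries. The class is steep: the median Snora member had 167 counts in replicate 2 and 92.8 in replicate 1. Snora36b was its lowest member, with 12.0 counts in replicate 2 and 30 in replicate 1.

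Few genes with Snord symbols passed, 10 in both libraries and 20 when replicate 2 alone was used. Snord17 led with 11144 counts in replicate 2 and 7188 in replicate 1, and Snord15b followed with 4653 and 2303. Snord22, whose counterpart is needed for small-subunit rRNA processing in frog oocytes, had 3090 counts in replicate 2 and 1259 in replicate 1. Snord15a, in the same host gene as Snord15b, had 610 and 502 counts. Snord23 had 101 counts in replicate 2 and 17.0 in replicate 1. Snord118, the U8 RNA needed for large-subunit rRNA maturation in frog oocytes, had 17.0 and 22 counts. Of the 10 Snord members, 9 had a higher CPM in replicate 2, and Snord118 had a lower one.

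Of the 63 members with other symbols, Gm23262 had 9016 counts in replicate 2 and 6095 in replicate 1. Gm22009, an scaRNA by type and the longest of this class at 343 nt, had 8163 and 5859 counts. Gm22422 had 9075 counts in replicate 2 and 1800 in replicate 1, which put it at 8316 and 2027 TPM, the highest mean TPM of any member, though in replicate 1 Gm25492 and others were higher. Gm23245 reached 5946 TPM in replicate 2 and 2985 in replicate 1, Gm25835 reached 3873 and 2915 TPM, and Gm25492 reached 2546 and 3444 TPM. The files give these genes no role. The lowest member of all was Gm22362.

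The order of Snora and Snord medians depended on the scale and the library. On log2(TPM + 1), the Snora median was 7.12 in replicate 2 and 6.41 in replicate 1, against 7.92 and 7.06 for Snord members, a difference of -0.73 ± 0.11 (SD, n = 2). On log2(CPM + 1) the same difference was -0.56 in replicate 2 and 0.77 in replicate 1 (0.11 ± 0.94, SD, n = 2), so the Snord median was the higher one in replicate 2 on both scales and in replicate 1 on TPM alone. On TPM the difference was 1.12 in the alignment-free table, 2.44 with members chosen on replicate 2 alone and 6.62 with any count above 0, so its sign changed with the table and the genes taken in. TPM divides by an effective length, the mean number of positions at which a fragment can start, taken over the library's range of fragment lengths. Over members, whose median length was 136 nt, its median was 11.5 nt for replicate 2 and 9.45 nt for replicate 1. For Snord21 and Snord83b, both 94 nt, it was 0.00 in both libraries, and both are listed at a TPM of 0 although they were counted. The same holds for Snord genes that the wider settings took in, such as Snord14c and Snord14d, 86 nt each. The differences of -0.73, 2.44 and 6.62 therefore all include Snord TPMs of 0 that are set by length and are no measured level. In -0.73 these are the values of Snord21 and Snord83b.

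**Figure D1:**
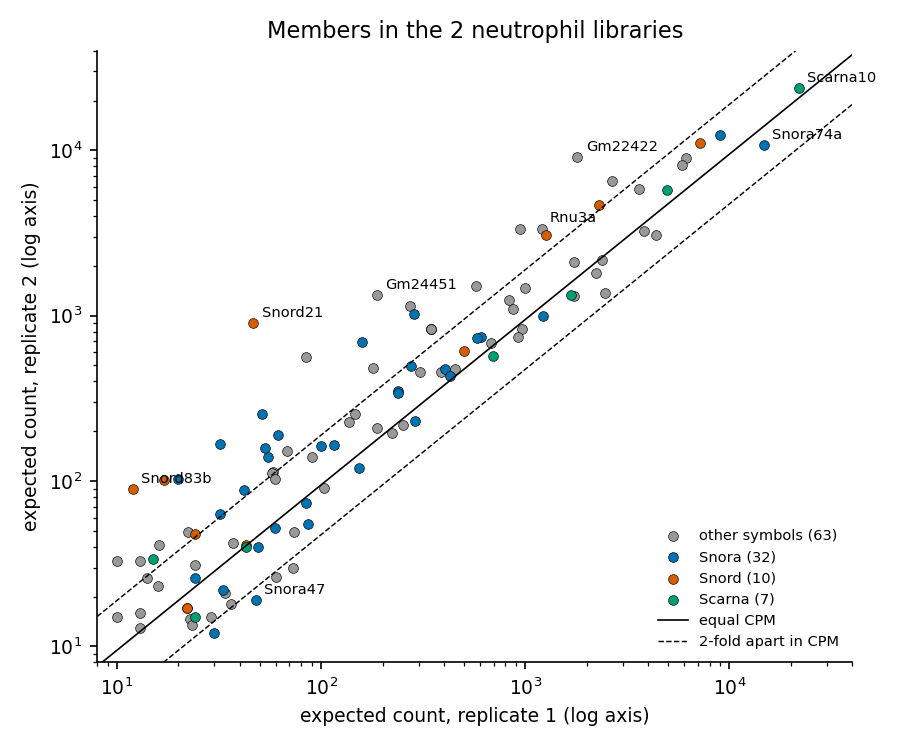
Expected counts of the 112 members, replicate 1 on the horizontal and replicate 2 on the vertical axis, both logarithmic, coloured by class. The solid line marks equal CPM and the dashed lines a 2-fold difference; 37 members lie above the upper dashed line and 4 below the lower, with Snord21 farthest from equality at 905 counts in replicate 2 and 46.5 in replicate 1.

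U3 shows what copies do to these values. The Rnu3b1, Rnu3b2, Rnu3b3 and Rnu3b4 members had the same values, 826 counts each in replicate 2 and 345 each in replicate 1. Their reads were split evenly, and the posterior SD that the files give for Rnu3b1 was 507 and 175 counts. A further 4 Rnu3b genes, 1 base shorter and contained in these, had 259 counts each in replicate 2 and 0 in replicate 1. Rnu3a had 3366 counts in replicate 2 and 1202 in replicate 1. Summed over all 10 Rnu3a and Rnu3b genes, U3 had 7707 counts in replicate 2 and 2583 in replicate 1, or 359 and 114 CPM. The sum does not depend on the split, and it was 3.15-fold higher in replicate 2. The 2 Snora16a members (136 and 137 nt) lie over each other, with posterior SDs of 44.7 counts each in replicate 2 and 32.3 and 32.4 in replicate 1, so their single values are uncertain. In all, 10 members had a posterior SD over 10% of the posterior mean in replicate 1, and 59 had one of 0 in both libraries.

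In the gene table, of the rRNA-processing RNAs besides U3, the U17 pair was well counted and the others lay near the minimum or under it. In the alignment-free table Snord118 was well counted too, with 838 counts in replicate 2 and 730 in replicate 1. Of the 18 annotated genes on that list, 8 are members: Rnu3a, the 4 Rnu3b genes, Snora73a, Snora73b and Snord118. Snord14d, a U14 RNA, had 32.8 counts in replicate 2 and 4.85 in replicate 1, and Snord14e and Snord14a had 0 in both. In the alignment-free table Snord14e had 69.7 counts in replicate 2 and 0 in replicate 1. The Snord14 genes listed are 86 to 90 nt long, shorter than any gene with an effective length above 0. Snord13, the U13 RNA, had 25.0 counts in replicate 2 and 1.00 in replicate 1. Of the imprinted, mainly neuronal families, 19 genes were found by symbol (17 Snord116 copies, Snord64 and Snord107). None of the 19 had a count in either library or in either kind of table. The list also named Snord113, Snord114 and Snord115, but no gene with such a symbol was found, so the 19 do not cover those families. All are 67 to 94 nt long with an effective length of 0.00, so in the gene table that 0 sets no level. In the alignment-free table a count of 0 allows up to 0.111 CPM in replicate 2 and 0.104 in replicate 1, for counting error only.

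Few short genes were members. In the gene table, 0 of 284 annotated genes under 80 nt and 2 of 178 genes of 80 to 99 nt were members, against 85 of 1031 at 100 to 149 nt and 17 of 39 at 200 nt and over. Snord genes had a median length of 84.0 nt, and Snora genes 132.5 nt. The effective length was 0 for 450 of the 1558 genes in replicate 2 and for 458 in replicate 1. The shortest gene with a value above 0 had 97 nt for replicate 2 and 99 nt for replicate 1. Class and length therefore cannot be told apart in the number of members per class.

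**Figure D2:**
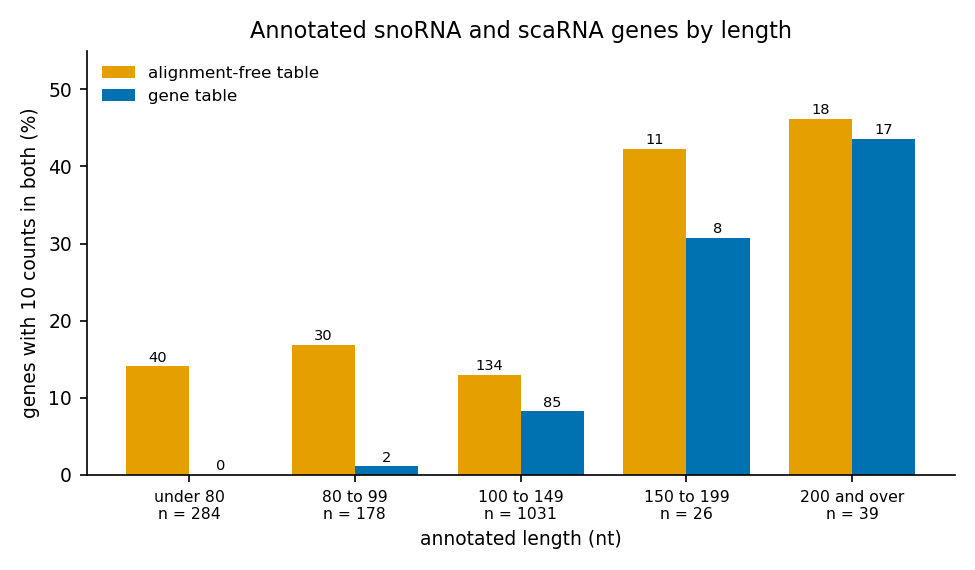
Share of annotated snoRNA and scaRNA genes with at least 10 counts in both libraries (vertical axis, percent) by annotated length in nt (horizontal axis, number of genes below each range). Left bars are the alignment-free table and right bars the gene table, with gene numbers above them; under 80 nt 40 genes pass in the alignment-free table and none in the gene table.

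The alignment-free table, in which reads were assigned to transcripts with no alignment file among its deposited parents, counted more genes of this kind. It had 10 counts in both libraries for 233 genes, of which 110 are members and 123 are not. The 123 include 40 Snord genes, and 62 of the 123 had 0 in the gene table in both libraries, 48 of them under 100 nt. Snord57 had 2349 alignment-free counts in replicate 2 and 1509 in replicate 1, and 0 in the gene table in both libraries. Snord32a had 1240 alignment-free counts in replicate 2 and 974 in replicate 1, against 37.0 and 4 in the gene table. Snord34 had 952 and 466, against 0 in both. By this table the expressed Snord genes number 50, in place of 10.

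Members had more counts there too, as most genes did. Alignment-free counts exceeded expected counts in both libraries for 109 of 112 members, with a median ratio of 1.68, against 96.3% of all 14215 genes compared and a median ratio of 1.31. Scaled to each table's total, 82 members were higher in both libraries with a median ratio of 1.33, against 51.6% of all genes and 1.03. In counts, 14 members were at least 5-fold higher. The largest ratio was that of Gm22442, with 1214 alignment-free counts in replicate 2 and 1034 in replicate 1, against 16.0 and 13.0 expected counts. Gm23722 had 544 and 534, against 13.0 in each library. Snord118 had 838 and 730, against 17.0 and 22, so U8 is near the minimum in 1 table and well counted in the other. Gm22884 had 714 and 543, against 14.6 and 22.7. Snora68 had 733 and 490, against 63.6 and 32.1. The 3 members with lower alignment-free counts were Gm25820 (0 in replicate 2), Snora16a of 137 nt (0.78 times) and Gm22009 (0.83 times). The Gm25820 member has an overlapping copy, which took 772 alignment-free counts in replicate 2 and 571 in replicate 1. Which table lies nearer to the RNA present was not tested.

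**Figure D3:**
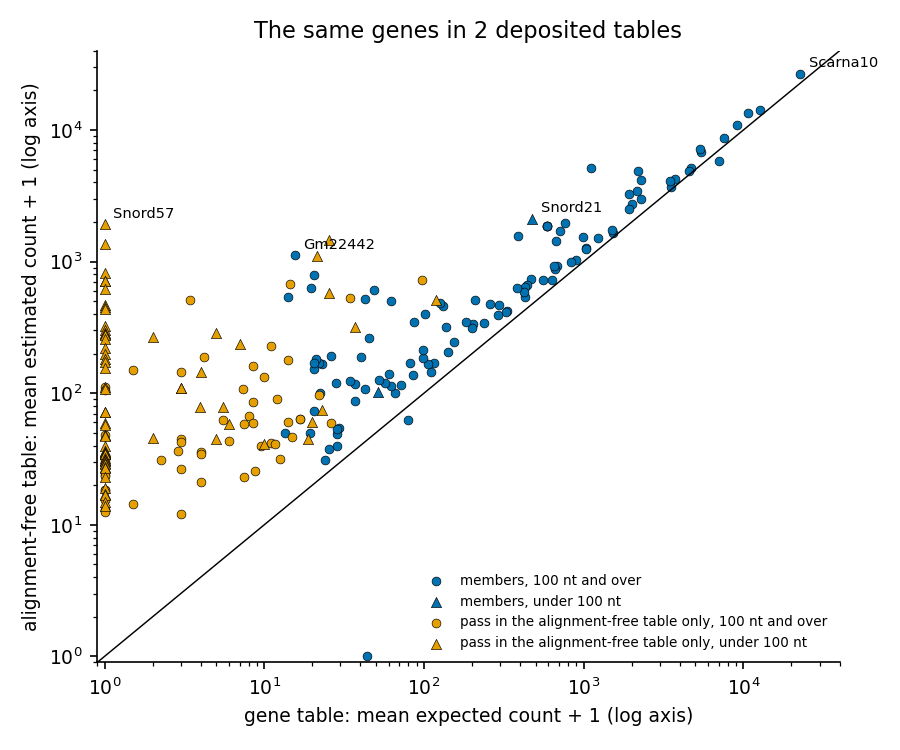
Mean alignment-free count (vertical axis) against mean expected count of the gene table (horizontal axis), each plus 1 on a log axis, for the members (blue) and the 123 other genes that pass in the alignment-free table alone (orange). Triangles are genes under 100 nt; 48 of these 70 stack at 0 in the gene table, with Snord57 at the top, and the line marks equal counts.

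Members varied more between the 2 libraries than other genes of the same count. The log2 CPM ratio of replicate 2 over replicate 1 had a median of 0.54 over the 112 members, and 76 were higher in replicate 2. Over all 14222 genes with 10 counts in both libraries it was -0.02, and 46.6% were higher. A total of 37 members were at least 2-fold higher in replicate 2, where 2.14% of all genes were, and 4 were at least 2-fold lower, where 2.09% of all genes were. In either direction that is 41 members, against 4.23% of all genes. Among genes with a mean count of 1000 or more, 7 of 26 members were at least 2-fold higher, against 8 of 3811 genes in all (0.21%), a count that holds those 7. Between 100 and 1000 counts it was 16 of 42 members, against 35 of 6245 genes (0.56%). The 4 identical Rnu3b members, whose reads were split evenly, are among these 16, and counted once they leave 13 of 39 here and 34 of 109 in all. Below 100 counts it was 14 of 44 members, against 261 of 4166 genes (6.27%). With 1 group of 2 libraries no test stands behind these counts, and they compare libraries, not conditions.

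The largest difference was that of Snord21, a box C/D RNA within Rpl5, with 905 counts in replicate 2 and 46.5 in replicate 1. Its CPM was 20.5-fold higher in replicate 2 (95% exact conditional interval 15.1 to 27.8, counting error only). In the alignment-free table the same gene had 2655 counts in replicate 2 and 1581 in replicate 1, a much smaller gap. Snord83b had 89.0 counts in replicate 2 and 12.0 in replicate 1, and Gm24451, in Nop56, had 1331 and 187. Gm23734, the placeholder gene with C/D boxes, had 566 counts in replicate 2 and 84.0 in replicate 1 (7.11-fold, interval 5.64 to 9.05). Snord23 had a 6.27-fold higher CPM in replicate 2. These 5 are 94 to 133 nt long. In Gm22422, with far more counts, the ratio was 5.32 (interval 5.05 to 5.60).

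Lower in replicate 2 were Snora47, with 19.0 counts against 48.0 in replicate 1, and Snora36b. Gm24727 had 30 counts in replicate 2 and 73.0 in replicate 1, Gm25820 had 26.2 and 60.0, and Gm23119 had 18 and 36.0. None of these 5 had over 73.0 counts in either library, and Gm23119 was within 2-fold. The counting interval lay wholly above 1 for 63 members and wholly below 1 for 17. Across members the log2 CPM of the libraries had Pearson's r = 0.93 (n = 112 genes of the same 2 libraries, as a description).

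By class, the median log2 CPM ratio was 1.08 for the 10 Snord members, 0.62 for the 63 with other symbols, 0.47 for the 32 Snora members and -0.03 for the 7 Scarna genes. Members of 200 nt and over had a median of 0.56, those of 150 to 199 nt 0.11, those of 100 to 149 nt 0.59 and the 2 of 80 to 99 nt 3.66. Length alone does not order these values. On TPM, which takes each library's effective lengths into account, the members' median log2 ratio was 0.20 (110 members with a TPM), against -0.11 over all genes. There 24 members were at least 2-fold higher in replicate 2, where 2.41% of all genes were, and 8 were at least 2-fold lower, where 4.28% of all genes were. A difference in fragment length moves with this: over 7846 genes of 2000 nt and longer, length minus effective length had a median of 159 nt for replicate 2 and of 165 nt for replicate 1. Its part in the result was not tested. The 50 other genes under 200 nt had a median log2 CPM ratio of 0.29. The 42 small nuclear RNA genes had a smaller one of 0.07, but 32 of them (76.2%) were higher in replicate 2. A raised share of genes higher in replicate 2 was thus not particular to the members.

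**Figure D4:**
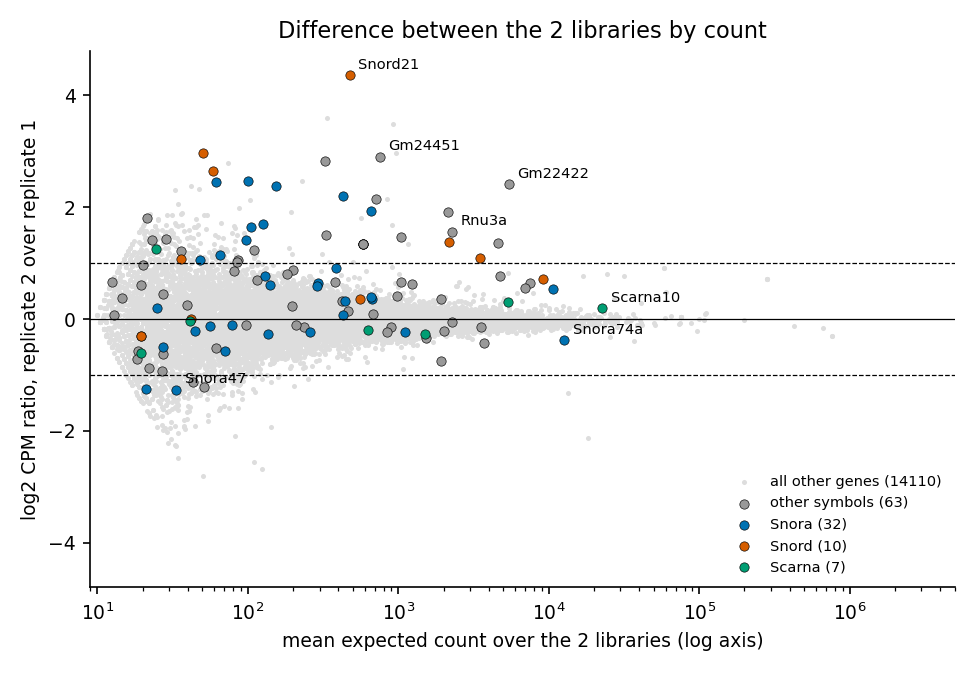
Log2 CPM ratio of replicate 2 over replicate 1 (vertical axis) against mean expected count (horizontal axis, log) for the members, coloured by class, and for 14110 other genes in grey. Dashed lines mark 2-fold; above 1000 counts 7 of the 8 genes at least 2-fold higher in replicate 2 are members, and Gm22422 is the highest of them.

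Nearly all host genes were within 2-fold on CPM, as were nearly all genes. Of all genes with 10 counts in both libraries, 4.23% were at least 2-fold apart. A total of 106 members lie within a longer gene on the same strand, in 85 host genes. By annotated type 75 of these are protein-coding and 10 are not. The 10 include Cct6a, typed as a processed transcript, and the type alone does not show that a gene is non-coding. The rule used no host value, but 30 members overlap a retained intron of a same-strand transcript, whose reads cannot be told apart by position. How far host RNA added to the members' counts was not tested. In both libraries, TPM reached 1 for 79 of the 85 hosts (92.9%), against 34.9% of all protein-coding genes. Of the 247 hosts that hold other annotated snoRNAs or scaRNAs but no member, 119 did (48.2%). Hosts that hold both kinds count among the 85 only. Median host TPM was 10.4 in replicate 2 and 11.6 in replicate 1. Ribosomal protein genes were 17 of the hosts and held 22 members, and translation factor genes with Eif or Eef symbols were 5 and held 8. Over the 83 hosts with 10 counts in both libraries the median log2 CPM ratio was 0.01. None was 2-fold higher in replicate 2, where 2.14% of all genes were. Tex14 was the only one 2-fold lower (-1.92), where 2.09% of all genes were. On TPM the hosts' median log2 ratio was -0.07. Snhg20 (11.4 TPM in replicate 2 and 3.71 in replicate 1) and Rcc1 were at least 2-fold higher, where 2.41% of all genes were. Members of 27 of these hosts, summed per host, were at least 2-fold higher in replicate 2, and 26 of these 27 hosts were within 2-fold.

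Single hosts make this concrete. Rpsa, a small-subunit ribosomal protein gene, had 146 TPM in replicate 2 and 145 in replicate 1, while its 3 members Gm24044, Snora62 and Gm26448 summed to 226 and 74.1 CPM. Eif4a2, a translation initiation helicase and host of Snora81, Gm24616 and Gm26447, had 150 TPM in replicate 2 and 159 in replicate 1, with members at 597 and 416 CPM. Taf1d, a subunit of the RNA polymerase I factor SL1, had 27.4 and 27.2 TPM, with Gm25791, Gm24455 and Gm22620 at 70.4 and 42.2 CPM. Snhg12, a non-coding host of Snora44, Snora61 and both Snora16a genes, had 7.95 and 8.42 TPM, with members at 24.6 and 11.7 CPM. On the log2 scale the summed members were higher in replicate 2 by 1.61 in Rpsa, 1.08 in Snhg12, 0.74 in Taf1d and 0.52 in Eif4a2. Tex14, a testis gene in which the Rnu3b copies lie, had 0.18 and 0.41 TPM.

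Host level did not order member level. Over the 106 members, log2(host TPM + 1) and log2(member CPM + 1) had Spearman's rho = 0.019, as a description over genes of the same 2 libraries. Genes that missed the minimum are not in it, so it cannot show whether host level bears on being counted. Scarna10 lies in Ncapd2, a condensin subunit gene at 3.46 TPM in replicate 2 and 5.69 in replicate 1. Gm22422 lies in Trmt10c, a mitochondrial tRNA methyltransferase gene at 2.08 and 2.17 TPM. Rplp2, at 258 TPM in replicate 2 and 191 in replicate 1, held only Snora52, with 7.85 and 1.41 CPM. Hosts under 1 TPM in both libraries included Rcc1, the host of the Snora73 pair by the rule used, at 0.64 and 0.28 TPM. That pair also lies within the non-coding gene Snhg3, at 1.91 TPM in replicate 2 and 1.31 in replicate 1. A total of 56 members also overlap an exon of another same-strand transcript, 30 of them a retained intron, so reads of the 2 cannot be told apart by position. For 22 members CPM exceeded the host's in both libraries, and for 81 it was below it.

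**Figure D5:**
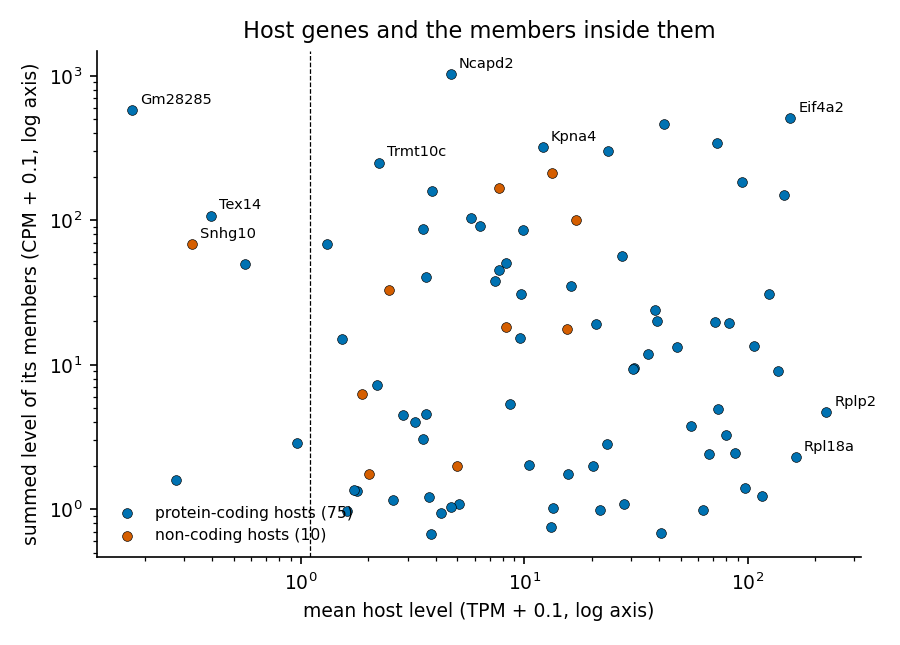
Summed CPM of the members in each of the 85 host genes (vertical axis) against mean host TPM (horizontal axis), each plus 0.1 on a log axis. Hosts typed as protein-coding are in blue, and hosts of other types, labelled non-coding, are in orange. The dashed line marks 1 TPM; Ncapd2, with Scarna10, lies at the top at a few TPM, while Rplp2 lies far right and low.

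The genes of the proteins that bind and trim these RNAs were mostly detected. Of 29 genes on 5 lists, 21 had at least 1 TPM in both libraries, against 34.9% of all protein-coding genes, and the list median was 2.85 ± 0.177 TPM (SD, n = 2). The median of all protein-coding genes was 0.11 TPM in replicate 2 and 0.12 in replicate 1. Rescaled to nuclear protein-coding genes, the list median was 33.1 TPM. All 4 box C/D core proteins passed: Nop56 had 16.0 ± 2.98 TPM, Nop58 13.9 ± 0.955, Snu13 6.25 ± 0.255 and the methyltransferase Fbl 4.41 ± 0.495 (SD, n = 2 each). Of the H/ACA core, the pseudouridine synthase Dkc1 had 6.58 ± 0.092 TPM, Nop10 3.35 ± 0.530 and Nhp2 1.56 ± 0.042, while Gar1 had 0.51 TPM in replicate 2 and 0.35 in replicate 1. Of 11 assembly factors 7 passed, from Ruvbl1 at 3.66 ± 0.106 TPM to Znhit3 at 1.02 ± 0.014, and Naf1 was the lowest at 0.14 ± 0.057. Of the 4 Cajal body genes only Smn1 passed, at 3.05 ± 0.643 TPM, while Coil, the coilin gene, had 0.60 ± 0.099 and Wrap53, whose product brings scaRNAs to Cajal bodies, 0.49 ± 0.226. All 6 processing and decay genes passed, with the nuclear exonuclease Xrn2 at 19.2 TPM in replicate 2 and 20.8 in replicate 1 and the lariat debranching enzyme Dbr1 at 2.02 ± 0.127. Scarna10 itself was at 1437 TPM in replicate 2 and 1386 in replicate 1.

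Non-coding host genes were led by Gas5 at 50.5 ± 7.58 TPM and Snhg1 at 16.9 ± 1.14, with 13 of 15 found genes at 1 TPM or more in both libraries. Dancr, which hosts no member, had 15.6 TPM in replicate 2 and 4.60 in replicate 1. Gas5 holds no member, though it hosts Gm22357, which had 1937 alignment-free counts in replicate 2 and 975 in replicate 1, against 43.8 and 4.85 in the gene table. Snhg14 (0.11 ± 0.035 TPM) and Rian (0.04 ± 0.028 TPM), hosts of imprinted snoRNA families, were under 1 TPM. Terc, the telomerase RNA, which carries an H/ACA domain but is not typed as a snoRNA, had 138 counts in replicate 2 and 50.0 in replicate 1.

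The neutrophil label was checked against markers fixed for it. All 8 neutrophil markers had at least 1 TPM in both libraries, with a median of 175 ± 15.1 TPM and S100a9 highest at 1199 ± 107, though Ly6g had 2.10 ± 0.269. Other blood cells left RNA too: all 6 B cell markers (median 63.1 ± 3.52 TPM), all 5 erythroid markers (341 ± 22.5), all 4 T cell markers (5.83 ± 0.477), all 3 monocyte markers (6.98 ± 0.325) and all 3 platelet markers (5.22 ± 0.276) passed (SD, n = 2). The erythroid median was above the neutrophil one, and erythroid Hba-a2, at 2894 ± 4.07 TPM, was above S100a9. No list had a marker at 0. The part of these cells in the members' levels was not tested.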

How the data were processed

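The data are 2 total RNA libraries of mouse blood neutrophils, grouped by the labels' replicate numbers. The authors deposited, per the file headers, gene tables with an expected count, an effective length and a TPM per gene, on GENCODE M21 and M4 gene models (mm10, per the submitters' processing notes), and an alignment-free transcript table whose rows are transcripts with estimated counts and TPM. Which programs made them is not given in the sources used here. Values of the M21 gene table were the main ones, and alignment-free values were summed per gene. Entries that carry only a number held 2.16e-04% of counts in replicate 2 and 1.63e-04% in replicate 1 and stayed out of totals.

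Transcript types came from the alignment-free table, and coordinates, host genes and sequences from GENCODE M21 on GRCm38. A host is the longest gene that contains a member on its strand, small RNA types left out, with protein-coding and lincRNA genes taken before other types. Members and lists were chosen with earlier results of these data known. Named genes are the highest and lowest of each class, those with the largest ratios between libraries or tables, those at the count minimum, copies, hosts with at least 3 members and the lists. A few genes that meet this rule are summarised in counts.

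CPM ratios with exact conditional binomial 95% intervals were tested on simulated data. Counts were rounded to whole numbers for these intervals and for TMM factors (edgeR 4.0.16) and size factors (DESeq2 1.42.0, R 4.3.3). All other values and the plots came from Python 3.11.15 (pandas 2.3.3; numpy 2.4.6; matplotlib 3.10.9; scipy 1.17.1). Reads carry no molecular identifiers in these tables, so intervals and limits from a count of 0 (3 counts) cover counting error only. No test between groups was possible, since there is 1 group. The alternatives were the other tables, other count minimums and scalings, and each library alone.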

Additional observations from a re-analysis of the deposited data

How the results depend on the processing

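Of 101 recomputed values, 81 stayed within 1.5 times the count, or within the spread, of the value reported, 16 moved and 4 changed sign. The alignment-free table moved most counts: it gave 233 genes in all, 50 Snord genes, 135 genes with other symbols, 101 genes past 2-fold between the libraries, 216 within a longer gene and 205 with a host at 1 TPM, and a median snoRNP protein level of 5.29 TPM. Replicate 2 alone gave 20 Snord genes and replicate 1 alone gave 10. With any count above 0 there were 21 Snord genes, and 77 genes past 2-fold. Without snRNA, misc_RNA and rRNA genes in the TPM total, the members held 35.8% of TPM. The median snoRNP protein level was 2.63 TPM in the M4 table and 33.1 TPM when rescaled to nuclear protein-coding genes. The Snora minus Snord difference of -0.73 was -0.30 at a minimum of 5 counts and -1.40 at a minimum of 20. It changed sign to 1.12 in the alignment-free table, 6.62 with any count above 0 and 0.11 on CPM, and was 2.44 in replicate 2 alone and -0.70 in replicate 1 alone. The -0.73, 6.62 and 2.44 all include counted Snord genes with an effective length of 0 and so a TPM of 0. All C/D boxes were found in 100% of Snord members with 1 mismatch in the C box and the D box in the last 12 bases. The causes were not tested. The members' median log2 ratio between the libraries stayed positive in all 8 settings tried, from 0.20 on TPM to 0.68 in the alignment-free table. The 0.20 is among the 81, though the value reported was 0.54 and has no SD over libraries.

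No paired analysis was possible because the series has only 1 group. With 2 libraries, counts near the minimum of 10 are limited by depth.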
